A study of Mus musculus with 6 samples.

Results

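Neutrophil-recruiting CXC chemokines and their receptors were followed in mouse bone marrow as 9 genes, of 56496 genes in the table: the ligands Cxcl1, Cxcl2, Cxcl3 and Cxcl5, the receptors Cxcr1 and Cxcr2, the scavenging receptor Ackr1, and the formyl peptide receptors Fpr1 and Fpr2. They were picked by symbol, and they were chosen by a comparison of their summed TPM between Onway and Control in these same libraries. Their differences between the groups are therefore described and not tested. All 9 symbols were found, each with 1 gene identifier.

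RNA-seq was done on bone marrow cells of female Balbc mice after resection of a 4T1 tumour (a mammary carcinoma line of the mouse). The Onway group holds 3 libraries (Onway 1, Onway 2 and Onway 3) from mice gavaged with Onway over 2 weeks and labelled day 14, and the Control group holds 3 libraries (Control 4, Control 5 and Control 6) from mice not given it, labelled day 0. The labels mark both groups as WT. The day goes with the group, so that the effect of Onway and that of the day cannot be told apart. The make-up of Onway is not stated in the sources, and whether every library is a separate mouse is not in the labels. All p-values therefore reflect only how far these libraries spread, which may be technical. For all 6 libraries the labels' extraction text also names a culture medium with dexamethasone, isobutylmethylxanthine and insulin, and it does not say whether these marrow cells were cultured.

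The CXC chemokines that carry the residues Glu-Leu-Arg before their paired cysteines attract neutrophils by binding Cxcr2, and some also bind Cxcr1. Macrophages, stroma, endothelium and neutrophils themselves make them after signals from interleukin 1, tumour necrosis factor, interleukin 17 or Toll-like receptors, through NF-kB and AP-1, and their mRNA is short-lived. In marrow, Cxcr2 ligands draw mature neutrophils into blood, against the Cxcl12 and Cxcr4 pair, which keeps them in place. Fpr1 and Fpr2 bind formylated peptides of bacteria and mitochondria, and Ackr1 binds chemokines on venular endothelium and red cell precursors without signalling.

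The ligand genes lie together on chromosome 5 within 146.6 kb (GRCm38, GENCODE M21 annotation, all on the plus strand): Cxcl5 at chr5:90759360-90761624, Cxcl3 at chr5:90786103-90789600, Cxcl1 at chr5:90891241-90893115 and Cxcl2 at chr5:90903871-90905938. Cxcr2 (chr1:74153989-74161246, plus strand) and Cxcr1 (chr1:74191785-74194631, minus strand) lie within 40.6 kb of chromosome 1, where Ackr1 lies at chr1:173331886-173333750 on the minus strand. Fpr1 (chr17:17876471-17883940, minus strand) and Fpr2 (chr17:17887824-17893952, plus strand) lie within 17.5 kb of chromosome 17.

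The 110 bases before the start of Cxcl1, Cxcl2 and Cxcl3 are shown because these genes of the same cluster have closely related starts and yet stood at very different levels in Onway (RefSeq, GRCm38.p6, plus strand). Each window ends 1 base before the earlier of the RefSeq and GENCODE starts. Capitals mark the match to the kappa-B consensus, the DNA element that NF-kB binds.
Cxcl2, chr5:90903761-90903870: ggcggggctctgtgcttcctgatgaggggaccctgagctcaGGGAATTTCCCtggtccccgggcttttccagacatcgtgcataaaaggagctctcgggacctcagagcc
Cxcl1, chr5:90891131-90891240: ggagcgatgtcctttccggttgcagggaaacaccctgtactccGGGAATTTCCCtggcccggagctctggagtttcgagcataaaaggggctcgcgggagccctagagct
Cxcl3, chr5:90785991-90786100: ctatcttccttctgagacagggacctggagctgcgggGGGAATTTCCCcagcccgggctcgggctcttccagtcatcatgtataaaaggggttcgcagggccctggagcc

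All 3 windows hold the same 11-base match, starting 69 bases before the GENCODE start of Cxcl2, 67 before that of Cxcl1 and 75 before that of Cxcl3. It is a match of the 10-base consensus on both strands, and the overlapping matches are counted as 1 place. Of 32851 promoters of 300 bases (250 before and 50 from the start), 4.51% held the consensus. Among the 8 of the 9 genes found in the promoter table, these 3 held it and Cxcr1, Cxcr2, Ackr1, Fpr1 and Fpr2 did not. TATAAA was found in Cxcl3, Fpr1 and Fpr2 (13.6% of all promoters) and the red cell factor motif AGATAA in Ackr1 and Fpr2 (11.2%). Counted from the RefSeq start, TATAAA lay at −30 to −25 in Cxcl3, but at −227 to −222 in Fpr1 and −130 to −125 in Fpr2. The AP-1 motif TGANTCA (7.81%), the CRE motif TGACGTCA (1.79%) and the C/EBP motif TTGCNNAA (10.8%) were in none of the 8. Motifs were searched on both strands, and a match is not a measured binding site. The printed windows were 69.7% identical between Cxcl1 and Cxcl2, 63.4% between Cxcl1 and Cxcl3 and 66.9% between Cxcl2 and Cxcl3.

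The 2 groups of 3 libraries were compared in TPM, transcript abundance per length scaled to a fixed total, which allows genes to be set side by side and keeps no read depth. Unless libraries are named, values follow their numbers (4, 5, 6 for Control; 1, 2, 3 for Onway). Haemoglobin genes took 26.6%, 11.6% and 18.3% of TPM for Control and 13.4%, 9.39% and 33.9% in the Onway libraries. Markers of late neutrophils (16 genes, with S100a9, S100a8 and Ngp highest) summed to 98794, 213698 and 177479 TPM in the Control libraries and to 192777, 196868 and 110603 TPM in the Onway libraries, so Control 4 and Onway 3 were the libraries lowest in neutrophil RNA in their groups. All 16 of these markers were detected in both groups. In such bulk samples, fewer cells of a type and less RNA per cell cannot be told apart.

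Cxcl2 was the ligand whose RNA differed most. It was at 0.39, 1.82 and 4.14 TPM for Control and at 468, 179.7 and 52.4 TPM for Onway. Every Onway library was above every Control library, and the Onway libraries themselves spread over 8.94-fold. The means were 2.12 ± 1.89 TPM for Control and 233 ± 213 TPM in Onway (SD, n = 3 each), 110-fold apart, and the difference on the log2(TPM + 1) scale was 5.93 (SE 0.92). On that scale the change of genes near 1 TPM is understated. The authors' deposited means, each of 4 values, lay much closer, at 60.6 TPM for Control and 179 TPM in Onway, as set out below.

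Cxcl1 and Cxcl3, which lie in the same cluster as Cxcl2, stayed near 0 in both groups. Cxcl1 was at 0.36, 0 and 0.32 TPM in the Control libraries and at 0.34, 0.10 and 0.12 TPM in the Onway libraries. Cxcl3 was at 0.06, 0.42 and 0.15 TPM among Control libraries, then 0.42, 0.19 and 0.10 TPM in Onway. For both genes the groups overlapped, and neither reached the mean of 1 TPM over the 6 libraries required for the fit. In the Onway libraries Cxcl2 made up 99.8%, 99.8% and 99.6% of the summed TPM of the 4 ligands, against 11.1%, 53.1% and 64.6% in the Control libraries.

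Cxcl5, a ligand made mainly by epithelial and stromal cells, went the other way at a low level. It was at 2.71, 1.19 and 1.80 TPM in Control 4, Control 5 and Control 6, at 0.22 and 0.11 TPM in Onway 1 and Onway 2, and listed at 0 in Onway 3. The groups did not overlap, and the means were 1.90 ± 0.765 and 0.110 ± 0.110 TPM (SD, n = 3 each; log2 difference −1.36, SE 0.28). Its mean over the 6 libraries was 1.005 TPM, just inside the filter, which it passed through its Control values alone, while Cxcl2 passed through its Onway values. Markers of stroma and bone moved in the same direction as Cxcl5: their 10 genes summed to 439 to 1132 TPM for Control and to 16.9 to 33.2 TPM in Onway, with 8 of 9 tested lower and none of the 10 at 0 in every Onway library. What 4 times the authors' deposited group mean leaves beyond the 3 libraries did not repeat this fall for the highest of these markers. It was 9.16 and 8.44 TPM for Spp1 (Control, then Onway), 0.41 and 0.78 TPM for Bglap and 2.41 and 1.54 TPM for Col1a2. Each Control remainder lay below the 3 Control libraries. For Cxcl5 itself this remainder was 0.80 TPM (Control) and 1.11 TPM (Onway). Stroma was not the only marker set to fall in these libraries. Megakaryocyte and platelet markers summed to 2180 to 2491 TPM for Control and 115 to 191 TPM in Onway. Endothelial markers (149.5 to 166 against 40.8 to 44.3 TPM) and skeletal muscle markers (717 to 4618 against 16.7 to 24.4 TPM) were lower too. The part of any of these cells in the Cxcl5 values was not tested.

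**Figure D1:**
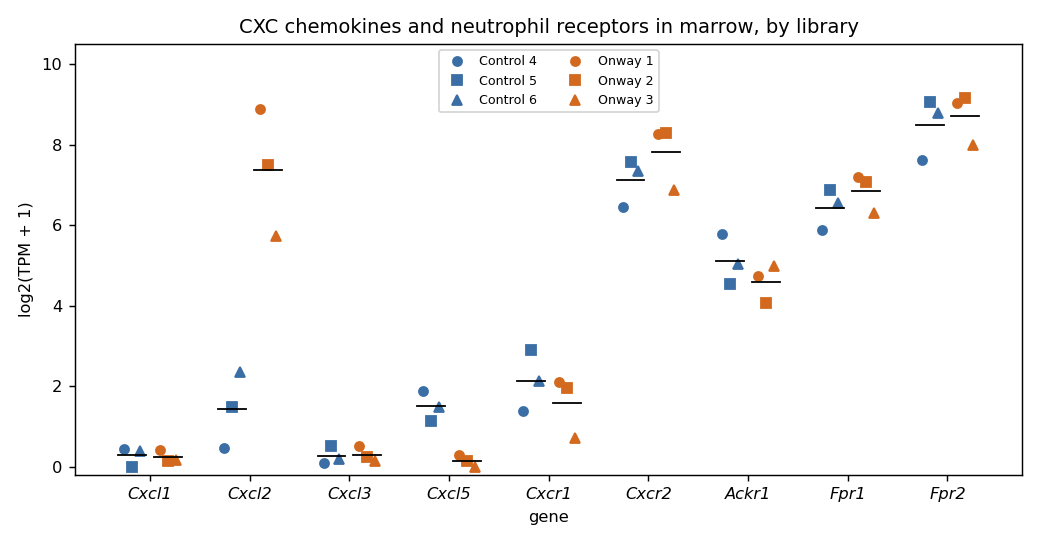
Level of each of the 9 genes as log2(TPM + 1) by library (points; marker shape gives the library) with the group mean (line). Cxcl2 is the gene with the widest gap, from at most 4.14 TPM in Control to at least 52.4 TPM in Onway, while Cxcl1 and Cxcl3 stay below 0.5 TPM in all 6 libraries.

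Over all 14192 tested genes, 33 (0.233%) were past the threshold as higher in Onway and 424 (2.99%) as lower, by limma with Benjamini-Hochberg adjustment. Of the 9 genes 7 were tested, and Cxcl2 was past it as higher and Cxcl5 as lower. Without overlap between the groups were 6.95% of tested genes as higher and 11.5% as lower, and the same genes, 1 in each direction, among the 7. Since the genes were chosen on this comparison, nothing is read from these counts. Both calls were fragile: Cxcl2 was past the threshold in 7 and Cxcl5 in 4 of 16 alternative settings. Leaving out any single library except Onway 3 ended the call of Cxcl2, with log2 differences of 5.17 to 6.74 over the 6 left-out libraries. Leaving out an Onway library ended that of Cxcl5, and without any 1 Control library its mean fell below the filter, with differences of −1.54 to −1.16.

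In the Onway libraries most of the Cxcl2 signal sat on transcripts annotated as retaining an intron. The table lists 6 Cxcl2 transcripts, 4 from Ensembl and 2 newly assembled. The 397-base ENSMUST00000202317 (retained intron, 2 exons) was at 256, 67.3 and 22.6 TPM for Onway, and the 2066-base ENSMUST00000200919 (retained intron, 1 exon) at 97.6, 72.5 and 20.3 TPM. The 1109-base coding transcript ENSMUST00000075433, with 4 exons, was at 85.5, 24.2 and 5.08 TPM. Retained-intron transcripts made up 75.5%, 77.8% and 81.9% of the gene's TPM in the 3 Onway libraries, and 25.6%, 62.6% and 52.2% of the far smaller amount in the Control libraries. TPM is per length, so a short transcript such as the 397-base form weighs more in this share than its reads alone would.

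The coding transcripts of Cxcl2 alone, a restriction added after the values were seen, summed to 0, 0.17 and 1.39 TPM for Control and to 91.8, 27.0 and 5.08 TPM for Onway. The groups still did not overlap, and the log2 difference was 4.15 in place of 5.93. Cxcl2 and Cxcl3 share a run of 110 identical bases in their coding transcripts of 1109 and 1016 bases (GENCODE M21), so reads from it can be assigned to either gene. Cxcl1 shares at most 23 identical bases in a row with Cxcl2 or Cxcl3, and Cxcl5 at most 12 with the other ligands.

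**Figure D2:**
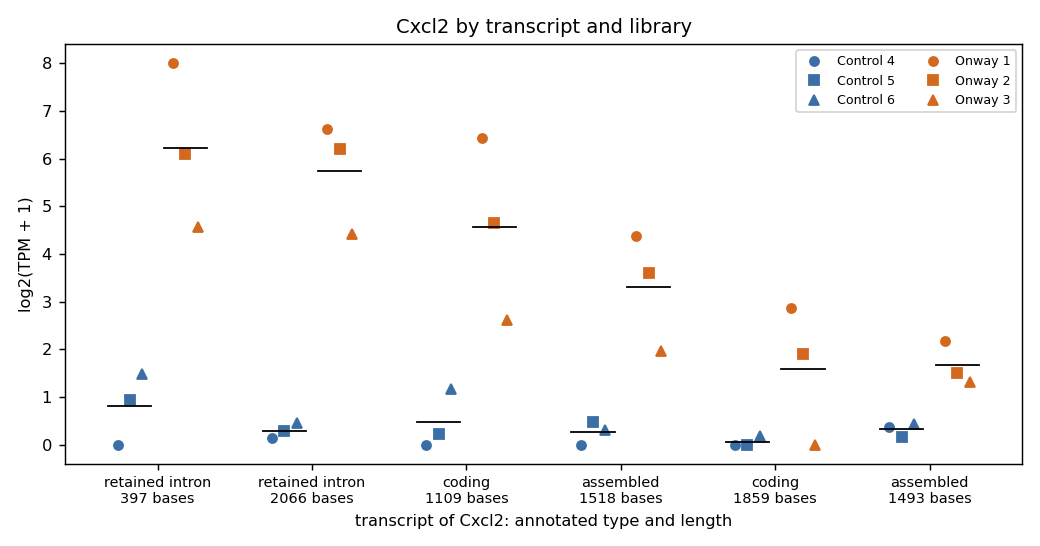
Cxcl2 by transcript: log2(TPM + 1) in each library (points) and the group mean (line), with the annotated type and the length of each transcript. The 2 retained-intron forms stand highest in Onway, and the 1109-base coding form follows at 85.5, 24.2 and 5.08 TPM in the Onway libraries.

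The genes whose profile over the 6 libraries lay nearest to that of Cxcl2 were Fos, Egr1, Rpl17-ps5, Fosb and Gm28872. Nearness was the root mean square difference of log2(TPM + 1) after centring each gene, and it was 0.76 for Fos, 1.27 for Egr1, 1.45 for Rpl17-ps5, 1.57 for Fosb and 1.59 for Gm28872. Fos, Egr1 and Fosb are immediate early transcription factor genes, Rpl17-ps5 is a pseudogene of a ribosomal protein gene, and Gm28872 is a predicted gene. Fos was at 10.2, 8.81 and 25.4 TPM for Control and at 715, 446 and 206 TPM for Onway. Like Cxcl2, it was highest in Onway 1 and lowest of the Onway libraries in Onway 3.

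The summed TPM of 18 immediate early genes stood in the same order among the Onway libraries as Cxcl2, at 2591, 1880.0 and 1009 TPM, against 294.5, 295.5 and 421 TPM in the Control libraries. Of 15 tested, 5 rose (Fos, Junb, Dusp1, Jund and Klf2) and none fell. In what 4 times the authors' deposited group mean leaves beyond the 3 libraries, 4 of these 5 ran in reverse order to the libraries. Fos left 257 and 74.1 TPM (Control, then Onway), Junb 194 and 80.6 TPM, Dusp1 207 and 58.5 TPM and Jund 79.8 and 40.8 TPM, while Klf2 left 24.6 and 31.3 TPM. Markers of monocytes and macrophages, cells that make Cxcl2, summed to 814, 903 and 1006 TPM in the Control libraries and to 850.5, 1181 and 617 TPM in the Onway libraries, with overlapping groups (1 of 14 tested fell, Vcam1, none rose, and 7 had an unadjusted p under 0.05). The sum hides markers that differed in opposite directions without passing the test, named after their values were seen: C1qa, a complement gene of macrophages, was at 67.9 TPM for Control and 32.2 TPM in Onway on average, and Irf8, a monocyte transcription factor, at 39.4 and 73.8 TPM, each without overlap. Over all tested genes, 6.95% lay higher in Onway without overlap and 11.5% lower. Ly6c2, Ccr2, Csf1r and F13a1, on the same marker list, overlapped between the groups. The part of the early response or of monocytes and macrophages in the Cxcl2 values was not tested.

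**Figure D3:**
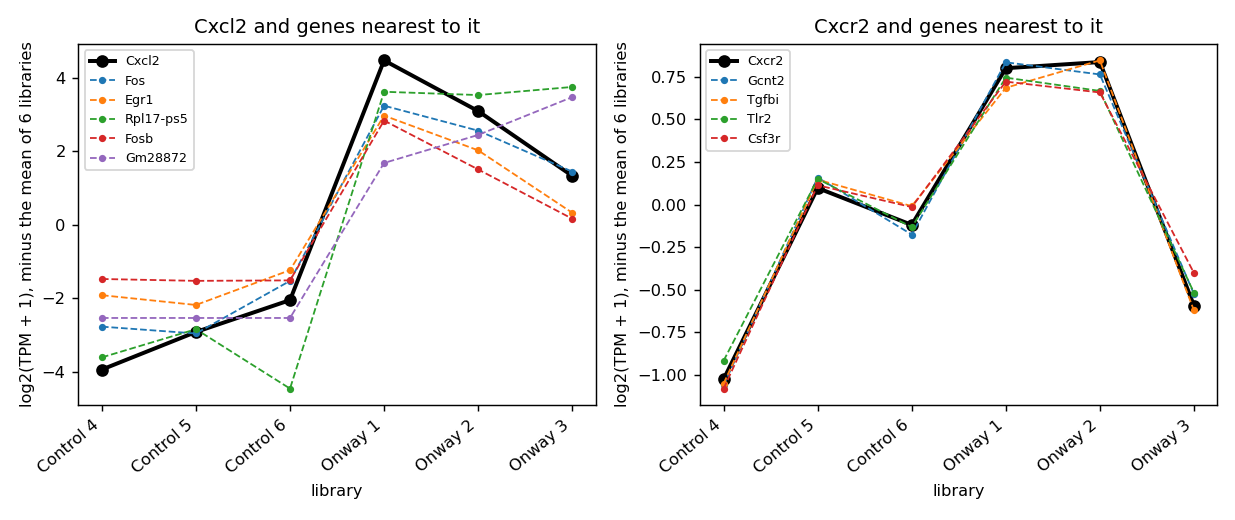
Profiles of Cxcl2 (left) and Cxcr2 (right) over the 6 libraries, with 5 genes nearest to Cxcl2 and 4 of those nearest to Cxcr2, as log2(TPM + 1) minus the gene's mean; lines only join the points of a gene. Cxcl2 parts the groups as Fos and Egr1 do, whereas Cxcr2 and its neighbours are low in Control 4 and Onway 3.

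Among the receptors, Cxcr2, the main receptor of these ligands on neutrophils, was at 85.8, 188 and 162 TPM for Control and at 307, 314 and 116 TPM for Onway. The groups overlapped because Onway 3 lay below 2 Control libraries. The means were 145 ± 53.0 and 246 ± 112 TPM (SD, n = 3 each; log2 difference 0.70, SE 0.48). Leaving out Onway 3 gave a difference of 1.17 and leaving out Control 4 gave 0.36. The 3046-base coding transcript ENSMUST00000106899 held 95.4% of Cxcr2 TPM for Control and 87.3% in Onway. An assembled transcript of 4398 bases held 2.09% and 9.21%, at 8.87, 0.21 and 0 TPM in the Control libraries and 27.1, 31.7 and 9.15 TPM in the Onway libraries.

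Cxcr1 was low in all 6 libraries. It was at 1.59, 6.43 and 3.41 TPM in the Control libraries and at 3.29, 2.89 and 0.64 TPM in the Onway libraries, with overlapping groups (log2 difference −0.54, SE 0.51). Cxcr2 exceeded it 29.2-fold to 54.0-fold in Control and 93.2-fold to 181-fold in Onway. The highest ratio rests on 0.64 TPM of Cxcr1 in Onway 3. No share over all genes was formed for this ratio, and the genes were chosen with these values known, so nothing is read from it. An assembled transcript of 3259 bases held 58.9% of Cxcr1 TPM for Control and 61.7% in Onway, and the coding transcripts held 41.1% and 38.3%. The coding transcripts of Cxcr1 (1125 bases) and Cxcr2 (3046 bases) share at most 14 identical bases in a row.

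Fpr2 was the most abundant of the 9 genes in both groups. It was at 197, 531 and 442 TPM for Control and at 521, 571 and 252 TPM for Onway (log2 difference 0.23, SE 0.47). Fpr1 was at 57.4, 117 and 92.5 TPM among Control libraries, then 146, 133 and 78.5 TPM in Onway (log2 difference 0.43, SE 0.33). The groups overlapped for both genes, and Control 4 and Onway 3 were the lowest libraries of their groups each time. The ratio of Fpr2 to Fpr1 varied little, from 3.42 to 4.78 in Control and from 3.21 to 4.29 in Onway. The 1324-base coding transcript of Fpr1 and the 1133-base one of Fpr2 share a run of 50 identical bases, so short reads may be assigned to either. Most Fpr2 TPM sat on another transcript, the 883-base ENSMUST00000149944 with 144 coding bases (57.7% in Control and 56.6% in Onway), and the 1133-base one held 31.1% and 30.9%.

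Set against the late neutrophil markers of the same library, a ratio chosen after the values were seen, Cxcr2 was almost constant in Control. It was at 0.868, 0.879 and 0.911 TPM per 1000 TPM of those markers for Control and at 1.59, 1.60 and 1.05 for Onway. Fpr1 was at 0.581, 0.547 and 0.521 in the Control libraries and at 0.755, 0.676 and 0.710 in the Onway libraries. For Cxcr2 and Fpr1 the groups did not overlap on this ratio, although they overlapped in TPM. S100a9 and S100a8 held most of the marker sum, so the ratio follows them above all. Their log2 differences were 0.06 and −0.11, beside a median of 0.32 over the 16 markers. For Csf3r, also on the list, the difference was 0.65, beside 0.70 for Cxcr2 and 0.43 for Fpr1. Ratios to single markers were not formed. On the same ratio 2.70% of all tested genes lay higher in Onway without overlap and 6.70% lower, and since the ratio and the genes were chosen with these values known, nothing is read from the count. Fpr2, at 1.99 to 2.49 in Control and 2.28 to 2.90 in Onway, and Cxcr1, at 0.0161 to 0.0301 and 0.0058 to 0.0171, overlapped on both.

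**Figure D4:**
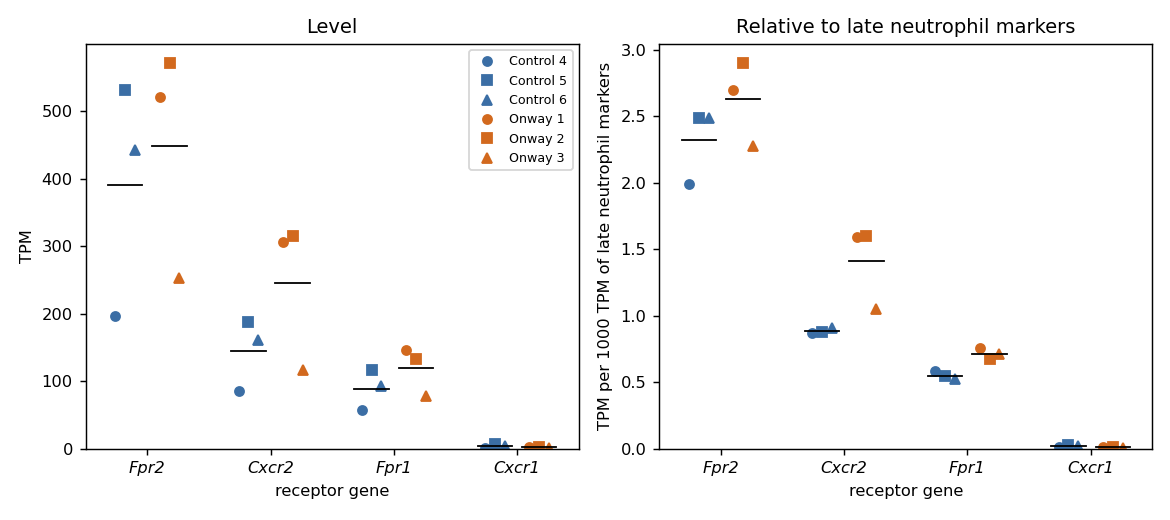
Receptor genes by library in TPM (left) and per 1000 TPM of the 16 late neutrophil markers (right), with group means as lines. On the right the Control libraries of Cxcr2 lie between 0.868 and 0.911 and the Onway libraries between 1.05 and 1.60.

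Markers of early neutrophils, with Mpo, Prtn3 and Elane highest, had a lower mean sum in Onway, with overlapping groups. The 7 genes summed to 4358, 8539 and 6517 TPM for Control and to 4670, 4156 and 2240 TPM for Onway. By limma with Benjamini-Hochberg adjustment none of the 7 passed (1 had an unadjusted p under 0.05), and their median log2 difference was −0.87 beside 0.03 over all tested genes. For the 16 late markers it was 0.32, again with none past the test and 0 with an unadjusted p under 0.05. The part of the mix of neutrophil stages in the receptor values was not tested.

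Genes near to Cxcr2 in profile were Gcnt2, Tgfbi, Tlr2 and Csf3r, with root mean square differences of 0.057, 0.070, 0.093 and 0.12 over the 6 libraries. Tlr2 is a receptor for bacterial lipopeptides and Csf3r the receptor of granulocyte colony-stimulating factor. Csf3r was at 131, 301 and 275 TPM for Control and at 459, 439.7 and 210.4 TPM for Onway, with the same low libraries as Cxcr2.

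Ackr1, the scavenging receptor, was at 54.4, 22.1 and 31.9 TPM for Control and at 25.7, 15.6 and 30.7 TPM for Onway. The groups overlapped (36.1 ± 16.5 against 24.0 ± 7.69 TPM, SD, n = 3 each; log2 difference −0.53, SE 0.37). Within each group Ackr1 was highest in the library with the highest haemoglobin share, Control 4 or Onway 3, and lowest in the one with the least, Control 5 or Onway 2. Ackr1 was also set against marker sums, which was not planned. Per 1000 TPM of erythroid markers other than haemoglobin, it was at 18.7, 24.7 and 20.4 in the Control libraries and at 15.4, 12.4 and 12.2 in the Onway libraries. Endothelial markers, the other known site of Ackr1, summed to 149.5 to 166 TPM for Control and 40.8 to 44.3 TPM in Onway (12 genes, 10 of 12 tested lower, none at 0 in every Onway library). For the highest of them the authors' deposited means leave 30.4 and 37.6 TPM for Vwf (Control, then Onway), 15.4 and 19.0 TPM for Pecam1 and 17.4 and 11.8 TPM for Egfl7. Vwf alone gave 53.5 TPM of the endothelial sum for Control and 5.20 TPM in Onway on average. Pecam1, also on the list of adhesion genes, gave 23.55 and 19.6 TPM. Megakaryocyte and platelet markers were lower in the same Onway libraries, and their part in the endothelial sum was not tested. Divided by the endothelial sum, Ackr1 went the other way. It was at 0.334, 0.148 and 0.192 in the Control libraries and at 0.630, 0.353 and 0.726 in the Onway libraries. The part of the erythroid or the endothelial markers in the Ackr1 values was not tested. The 1153-base transcript ENSMUST00000038227, with 2 exons, held 95.0% of Ackr1 TPM for Control and 95.7% in Onway.

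By mean level, the Control order was Fpr2, Cxcr2, Fpr1, Ackr1, Cxcr1, Cxcl2, Cxcl5, Cxcl1 and Cxcl3. The ranges over the libraries overlapped for Cxcr2 and Fpr1, Cxcr1 and Cxcl2, Cxcl2 and Cxcl5, and Cxcl1 and Cxcl3, and not for the other neighbours. In Onway the order was Fpr2, Cxcr2, Cxcl2, Fpr1, Ackr1, Cxcr1, Cxcl3, Cxcl1 and Cxcl5. There the ranges of the first 4 overlapped from neighbour to neighbour, as did those of the last 3. These ranges ignore that the genes were measured in the same libraries. Within every library Cxcr2 lay above Fpr1, at ratios of 1.49 to 1.75 in Control and 1.48 to 2.36 in Onway. It also lay below Fpr2 in each, at ratios of 0.354 to 0.437 and 0.461 to 0.589. By its mean Cxcl2 stood beside Cxcr1 in Control and between Cxcr2 and Fpr1 in Onway, but in Onway 3, at 52.4 TPM, it lay below Fpr1, Cxcr2 and Fpr2 of that library.

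The authors' deposited group means held a further value per group that is not among the 6 libraries, since they are means of 4 values. What 4 times a mean leaves beyond the 3 libraries, with no replicate, ran against the libraries for Cxcl2: it was 236 TPM in Control, within the range of the 3 Onway libraries, and 13.9 TPM in Onway, below all 3 of them. The authors' deposited means of Cxcl2 were 60.6 TPM for Control and 179 TPM in Onway. For Cxcl5 the remainders were 0.80 and 1.11 TPM, which also did not show the lower Onway level of the libraries. For Cxcr2 the remainders were 77.3 and 179.7 TPM, for Fpr1 51.5 and 128 TPM and for Fpr2 275 and 447 TPM, higher in Onway each time. Ackr1 left 37.4 and 32.2 TPM, Cxcr1 0.84 and 3.24 TPM, Cxcl1 0.07 and 0.23 TPM and Cxcl3 0.46 and 0.01 TPM.

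**Figure D5:**
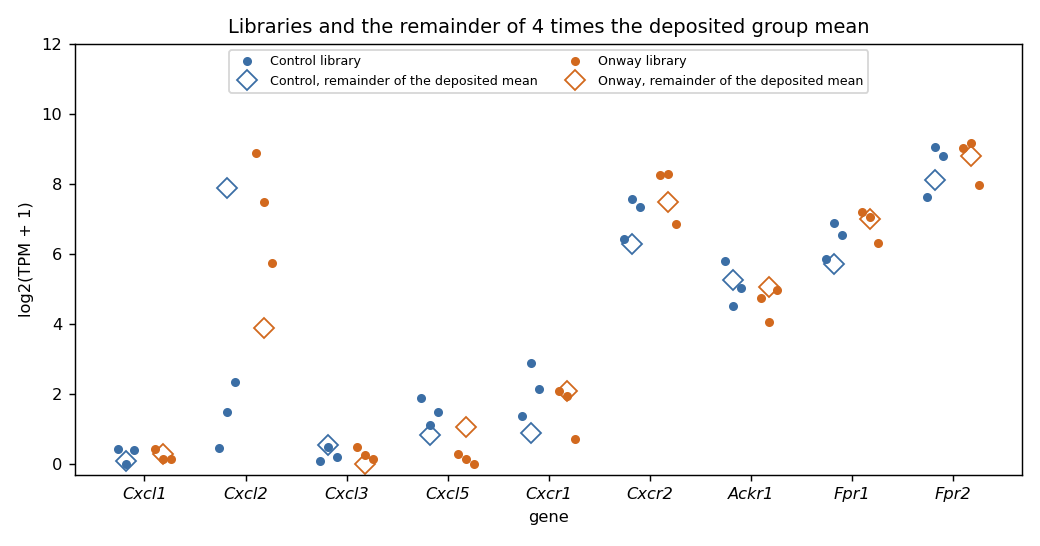
The 9 genes as log2(TPM + 1) in the 3 libraries of each group (filled points) and in the remainder of 4 times the deposited group mean (open diamonds). For Cxcl2 the diamonds are in reverse order to the libraries, at 236 TPM for Control and 13.9 TPM in Onway, while for Cxcr2, Fpr1 and Fpr2 the Onway diamond is the higher.

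Around these genes, 115 other symbols in 9 lists of the pathway were counted, of which 97 were tested. Of these 97, 3 rose and 9 fell, with a median log2 difference of 0.39 beside 0.03 over all tested genes. The other CXC chemokines gave 4 of the 9 lower calls: of 7 tested members 4 fell and none rose (median −2.70). They were the platelet chemokines Pf4 and Ppbp, of which Ppbp is cut to a further Cxcr2 ligand, Cxcl14, and Cxcl12, the retention ligand of marrow stroma. Ppbp was at 953, 811 and 773 TPM in the Control libraries and 41.3, 22.5 and 15.3 TPM in the Onway libraries (log2 difference −5.06, SE 0.34, limma with Benjamini-Hochberg adjusted p = 0.00052). Cxcl12 was at 276, 117 and 192 TPM for Control and 17.5, 23.8 and 32.8 TPM in Onway (log2 difference −2.89, SE 0.36, adjusted p = 0.0059). Megakaryocyte and platelet markers other than Pf4 and Ppbp, which stand on that list too, were lower in 10 of 10 tested and summed to 550.0 to 739 TPM for Control and 53.5 to 91.9 TPM in Onway, with none at 0 in every Onway library. Their part in the chemokine falls, like that of the stromal markers, was not tested, and the authors' deposited means leave 343 and 424 TPM for Ppbp and 71.2 and 65.8 TPM for Cxcl12, with no such fall. Skeletal muscle markers were also lower (8 of 8 tested, 717 to 4618 TPM against 16.7 to 24.4 TPM). For the highest of them the deposited means leave 17.4 and 10.6 TPM for Mylpf (Control, then Onway), 1.10 and 1.10 TPM for Tnnt3 and 0.03 and 0.44 TPM for Acta1. For the highest platelet markers other than Pf4 and Ppbp they leave 62.2 and 57.7 TPM for Tubb1, 69.3 and 77.5 TPM for Itga2b and 48.7 and 52.0 TPM for Gp9. None of 11 erythroid, 8 B cell and 7 T and NK cell markers passed in limma (0, 4 and 4 with an unadjusted p under 0.05).

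Among 4 tested chemokine receptors outside the 9 genes, Cxcr4, the Cxcl12 receptor, rose from 167 ± 21.2 to 302 ± 22.6 TPM (SD, n = 3 each; log2 difference 0.85, SE 0.18, limma adjusted p = 0.047), and Ackr4, a scavenging receptor of CC chemokines, fell from 4.28 ± 0.755 to 0.640 ± 0.0557 TPM (adjusted p = 0.0039). Cxcr4 was at 184, 144 and 174 TPM in the Control libraries and 302, 324 and 279 TPM in the Onway libraries, with no overlap. Its call ended without any single library (adjusted p = 0.069 without Onway 3, 0.073 without Control 4, 0.14 without Onway 1, 0.15 without Onway 2, 0.17 without Control 5 and 0.19 without Control 6). The list of retention and production genes, which shares Cxcl12 and Cxcr4 with these, also held the lower genes Vcam1, the adhesion ligand of integrin alpha 4 (86.7 ± 16.5 against 34.1 ± 0.990 TPM, adjusted p = 0.0090), and Kitl, stem cell factor (3.57 ± 0.965 against 0.513 ± 0.107 TPM, adjusted p = 0.012), so that 1 of 8 tested rose and 3 fell. Without Onway 2 the limma adjusted p of Vcam1 was 0.0548 and the adjusted p of Kitl was 0.0612, and Kitl also lost its call without Control 6 (0.0564) or Onway 3 (0.0551). The stromal and endothelial markers given above were lower in the same libraries, and their part in the falls of Ackr4, Vcam1 and Kitl was not tested. The authors' deposited means leave 0.87 and 1.37 TPM for Ackr4, 36.3 and 39.0 TPM for Vcam1 and 0.95 and 1.43 TPM for Kitl (Control, then Onway), with no such fall, and 156 and 234 TPM for Cxcr4.

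Other chemoattractant receptors showed no call. Of 6 tested, all 6 had a positive sign (median 0.46) and 1 an unadjusted p under 0.05, among them Ccrl2, an atypical receptor that binds chemerin, at 7.29, 4.69 and 9.83 TPM in the Control libraries and 43.6, 30.8 and 15.7 TPM in the Onway libraries (adjusted p = 0.072, and 0.029 without Onway 3), and the C5a receptor C5ar1 (85.3 ± 24.0 against 126 ± 51.5 TPM, adjusted p = 0.65). Beyond the libraries, the deposited means leave 28.2 TPM (Control) and 7.28 TPM (Onway) for Ccrl2, in reverse order to the libraries. For C5ar1 they leave 56.2 and 123 TPM. Of the other formyl peptide receptors, Fpr3 was at 15.8 ± 7.39 and 15.2 ± 4.64 TPM (adjusted p = 0.99), and the remaining 4 were listed at 0 in all 6 libraries. None of the 28 tested genes of receptor signalling passed (25 positive, 7 with an unadjusted p under 0.05, median 0.37). The smallest adjusted p was 0.060, for Rgs2, which shortens G protein signals, at 43.8 ± 5.52 and 86.3 ± 17.7 TPM, and it was 0.028 without Onway 3 and 0.0085 after rescaling without haemoglobin genes. None of 11 tested adhesion genes passed either (2 with an unadjusted p under 0.05, median 0.41).

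Of 25 tested inducers of these chemokines, 2 fell and none rose, while 22 had a positive sign (median 0.44). The lower genes were Il1a, an interleukin 1 ligand (3.85 ± 0.929 against 0.437 ± 0.0208 TPM, adjusted p = 0.0052), and Il1r1, the signalling receptor of interleukin 1 (2.86 ± 0.444 against 0.983 ± 0.0709 TPM, adjusted p = 0.049). The call of Il1r1 ended without any single library (adjusted p = 0.070 to 0.23 over the 6). Cebpb, a transcription factor of myeloid cells, was at 7.64, 13.3 and 14.7 TPM in the Control libraries and 30.8, 42.0 and 84.2 TPM in the Onway libraries (adjusted p = 0.059, and 0.036 without Onway 1). Il1b, the other interleukin 1 ligand, named after its values were seen, was at 22.1, 127 and 48.4 TPM in the Control libraries and 475, 353 and 75.0 TPM in the Onway libraries, with overlapping groups (log2 difference 2.15, SE 0.94, limma adjusted p = 0.41). The authors' deposited means leave 1.69 and 1.53 TPM for Il1a, 1.86 and 1.22 TPM for Il1r1 and 222 and 86.8 TPM for Il1b. For Cebpb they leave 21.6 TPM (Control) and 23.1 TPM (Onway), without the gap seen between the libraries. Il17a was listed at 0 in all 6 libraries.

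Of 9 tested genes whose products act on the decay of chemokine mRNA, 2 rose and none fell (median 0.20). Zfp36, which binds AU-rich mRNA and speeds its decay, was at 21.1, 35.6 and 38.1 TPM in the Control libraries and 297, 232 and 108 TPM in the Onway libraries (log2 difference 2.63, SE 0.41, limma adjusted p = 0.019). Its relative Zfp36l2 rose from 82.3 ± 14.8 to 199 ± 22.6 TPM (log2 difference 1.27, SE 0.20, adjusted p = 0.013). Without Onway 2 the adjusted p was 0.10 for Zfp36 and 0.070 for Zfp36l2, and with Ensembl transcripts only it was 0.14 for Zfp36l2. The authors' deposited means leave 151 and 82.6 TPM for Zfp36, in reverse order to the libraries, and 95.0 and 118 TPM for Zfp36l2. Among the Onway libraries Zfp36 was, like Cxcl2, highest in Onway 1 and lowest in Onway 3.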

How the data were processed

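The deposited table gives TPM for 158850 transcripts in 6 libraries of marrow cells, prepared, per the labels' protocols, with a SMARTER kit for mRNA. The TPM values the authors deposited were scaled by them to a fixed total per library and keep no read depth, so no counting interval is given. The submitters' processing notes name GRCm38 and mm10; aligner and quantifier: not given in the sources used here. Columns with the prefix N were matched to Onway by number. This match was checked on the deposited means: 4 times that of Onway never fell below the sum of these libraries (tolerance 0.011 TPM), and 4 times the deposited Control mean fell below that sum for 30461 transcripts.

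TPM was summed by gene. Genes averaging 1 TPM or more entered a test of log2(TPM + 1) with limma 3.58.1 (trend and robust moderation, R 4.3.3), Benjamini-Hochberg adjustment over 14192 genes and a threshold of 0.05. The code was tested on simulated data. The 9 genes and all gene lists (20 besides the members, 235 symbols, 234 found, Ahsp not) were chosen with earlier results of these data known. Named beside the 9 genes are the 5 genes nearest to Cxcl2 and to Cxcr2 (1 of the latter is not reported here) and up to 4 genes of each pathway list with the smallest p; of marker lists the highest genes; Il17a, Il1b, C1qa, Irf8 and the 5 immediate early genes that passed were named after their values were seen. Promoters are from RefSeq (8 of 9 genes), transcripts from GENCODE M21 and alignments from Biopython 1.88. Alternatives were pseudocounts, filters, scalings, transcript sets, plain limma and left-out libraries. Only Control and Onway were compared.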

Additional observations from a re-analysis of the deposited data

Results flagged for a closer look

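What 4 times the authors' deposited Control mean leaves for Cxcl2 beyond the 3 Control libraries, 235.98 TPM, lies far above those libraries (0.39, 1.82 and 4.14 TPM). The same remainder of the Onway mean, 13.88 TPM, also lies above them and below the 3 Onway libraries (52.4 to 468 TPM). These remainders come from columns that entered no comparison, have no replicate, and their source was not tested.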

How the results depend on the processing

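Over 16 alternatives Cxcl2, Cxcr2 and Fpr1 stayed higher and Cxcl5, Cxcr1 and Ackr1 lower in Onway by sign, Fpr2 was lower without Control 4 (−0.20), and Cxcl1 and Cxcl3 changed sign around 0. Coding transcripts only, an alternative chosen after seeing the data, gave 4.15 for Cxcl2 and −0.99 for Cxcl5. The log2 difference of Cxcl2 ran from 4.62 (pseudocount 5 TPM) to 6.74 (without Onway 3), and that of Cxcl5 from −3.33 (pseudocount 0.1 TPM) to −0.43 (pseudocount 5 TPM). Of the 9 genes, 0 were called higher and 0 lower with either pseudocount, with a mean of at least 5 TPM and without both Control 4 and Onway 3, and 0 were called lower after rescaling without haemoglobin genes or median-of-ratios scaling. Leaving out 1 library gave 0 to 1 higher and 0 lower. Over all genes 20 were higher and 183 lower with a mean of at least 5 TPM, 61 higher with median-of-ratios scaling, 63 higher with quantile normalization, and 97 higher and 207 lower without both Control 4 and Onway 3. Leaving out 1 library gave 16 to 87 higher (16 without Onway 2, 71 without Onway 1, 72 without Onway 3, 87 without Control 4) and 246 to 456 lower (246 without Onway 2, 254 without Onway 3). Of the other pathway genes, 5 were higher with Ensembl transcripts only, 5 higher and 4 lower without both libraries, and 5 lower with a mean of at least 5 TPM; without 1 library, 0 to 5 were higher (0 without Onway 2, 5 without Onway 3) and 6 to 8 lower. The cause of these shifts was not tested, other than that fewer genes or libraries entered some fits. No paired analysis was possible because the groups share no replicate numbers. Read depth is not known, so what depth limits at low TPM could not be given.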
